A study of Homo sapiens with 19 samples.

Results

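ERRα binding sites that were called in vehicle- and EGF-treated SKBr3 cells but not in HRG-treated SKBr3 cells are described here. Merging the vehicle, EGF and HRG peaks wherever 1 bp or more was shared gave 55998 sites, of which 5187 (9.26%) held a vehicle peak and an EGF peak and no HRG peak. These HRG-absent sites made up 24.3% of the 21362 sites with both a vehicle and an EGF peak, and the other 16175 carried an HRG peak too (common sites). The members were chosen by the peak calls themselves, so the absence of an HRG peak and the peak scores are given as a description with no test.

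SKBr3 is a human breast cancer cell line with amplified ERBB2. The cells were kept for 24 h in serum-starved medium and then received PBS as vehicle, 100 µM EGF or 100 µM HRG (heregulin) for 90 min, and chromatin was precipitated with an antibody against ERRα. Each SKBr3 list pools 2 ChIP libraries and 1 input library and stands alone for its condition, so the lists carry no spread between replicates and sites were compared without P values. BT-474, a second ERBB2-amplified breast cancer line, went through the same starvation and treatments with 1 ChIP library per condition and the input of the vehicle cells shared between them. The pSKBr3 list comes from untreated parental cells, and the LRSKBr3 list from lapatinib-resistant cells kept in 2 µM lapatinib, each with 2 ChIP libraries and 1 input library. Serum starvation is stated for the growth factor experiments only, so that these lists may differ from the other SKBr3 lists in serum as well. All lists come from established lines grown in culture, and they hold binding positions only, so that the identity of the cells was not checked here. The read depth behind the lists is unknown, and intervals in brackets are Wilson intervals at 95%, which cover counting error only.

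ERRα is an orphan nuclear receptor that binds DNA at a half-site with an extended 5′ end, the ERR response element (ERRE), and activates genes of mitochondrial metabolism together with the PGC-1 coactivators. EGF acts through EGFR and its dimers with HER2, whereas HRG acts through HER3 and HER4 and their dimers with HER2. Both ligands feed the MAP kinase cascade, which raises the activity of the FOS and JUN proteins that make up AP-1, a factor that binds its own palindromic element.

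The sequences below show the elements found in HRG-absent sites with high scores. They were read from the GRCh37 genome, 5′ to 3′ on the strand given, with 25 bases to each side, and the capitals mark the ERRE word TCAAGGTCA. They belong to the 6 strongest HRG-absent sites with that word within 100 bp of the centre of the vehicle peak.

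GARNL3 intron, chr9:130074119-130074177, plus strand: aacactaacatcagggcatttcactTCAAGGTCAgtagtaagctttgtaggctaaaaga
Nearest to FGGY, chr1:59669282-59669340, minus strand: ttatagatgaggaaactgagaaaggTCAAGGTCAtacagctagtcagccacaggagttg
Nearest to SEMA3C, chr7:80797688-80797746, minus strand: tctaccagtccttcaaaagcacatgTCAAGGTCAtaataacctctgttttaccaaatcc
EPS15 intron, chr1:51975634-51975692, minus strand: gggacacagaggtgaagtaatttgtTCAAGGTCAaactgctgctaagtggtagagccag
RARB intron, chr3:25136484-25136542, plus strand: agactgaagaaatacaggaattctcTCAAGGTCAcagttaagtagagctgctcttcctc
Nearest to COL13A1, chr10:71737270-71737328, minus strand: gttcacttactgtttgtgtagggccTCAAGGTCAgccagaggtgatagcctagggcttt

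The AP-1 word is TGACTCA on the plus strand, or TGAGTCA where it is read from the other strand, and it is marked in capitals in the 6 strongest HRG-absent sites that hold it.

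Nearest to LPP, chr3:187696600-187696656, plus strand: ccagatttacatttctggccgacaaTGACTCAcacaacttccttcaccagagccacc
Nearest to IQUB, chr7:123072130-123072186, plus strand: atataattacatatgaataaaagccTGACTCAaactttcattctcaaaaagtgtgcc
RUNX1 intron, chr21:36590058-36590114, plus strand: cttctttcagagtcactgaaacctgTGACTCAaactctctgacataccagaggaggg
GNG12 intron, chr1:68221430-68221486, plus strand: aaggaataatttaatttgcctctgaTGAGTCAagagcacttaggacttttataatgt
RPTOR intron, chr17:78593809-78593865, plus strand: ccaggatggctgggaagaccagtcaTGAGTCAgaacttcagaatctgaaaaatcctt
PHACTR2 intron, chr6:144066110-144066166, plus strand: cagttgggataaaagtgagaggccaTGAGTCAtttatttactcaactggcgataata

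A word in this window is a match of letters and does not show that the factor sat on it.

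HRG-absent sites had lower ranks than common sites in both lists that held them. Each peak carries the score of the peak caller, 10 times the negative log10 of its P value, and the score was turned into a percentile within its own list because scores of different libraries cannot be set against each other. The vehicle score of HRG-absent sites ran from 50 to 3100 with a median of 117, and that of common sites had a median of 292. The median percentile was 43.9 in the vehicle list (quartiles 25 and 61.8) and 33.5 in the EGF list (quartiles 18.0 and 50.1), against 71.8 and 71.9 for common sites. By the smaller of the 2 percentiles, 2544 HRG-absent sites (49%) lay at or below 25, 1830 lay between 25 and 50, 748 between 50 and 75, 62 between 75 and 90, and 3 above 90. Few sites were thus strong in both lists, while many were in the middle of the vehicle list. The EGF percentile was below the vehicle percentile at 65.6% of HRG-absent sites and at 55.3% of common sites.

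**Figure D1:**
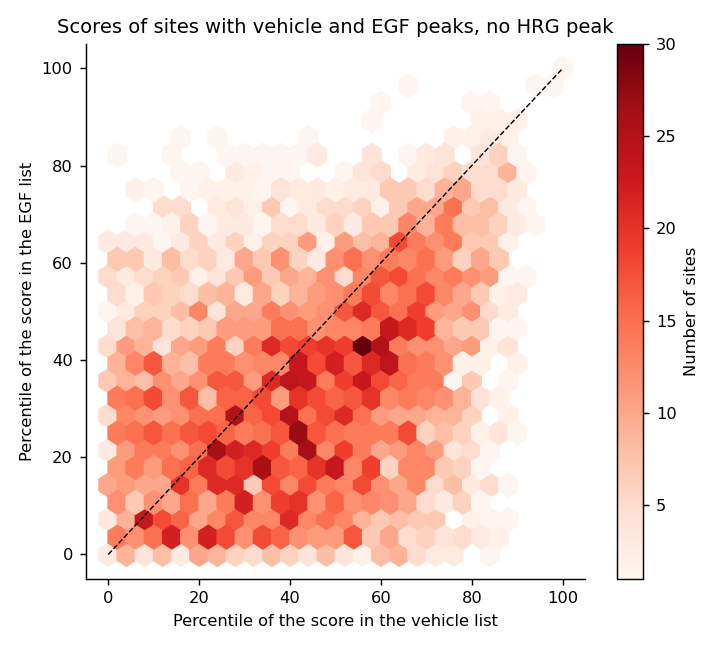
Percentile of the score in the vehicle list (horizontal) against the percentile in the EGF list (vertical) for the 5187 HRG-absent sites, with the number of sites in each hexagon as colour and a dashed line where both are equal. Most sites fall below the line, at low to middle percentiles of both lists, and only 3 exceed 90 in both.

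The HRG peaks nearest to these sites usually lay far away. The median gap to the nearest HRG peak was 22734 bp (quartiles 7555 and 54052 bp). An HRG peak came within 1000 bp of 243 sites (4.68%) and within 5000 bp of 931 sites (17.9%). Just inside the 1 bp rule, 13 HRG-absent sites had an HRG peak within 100 bp, with a median smaller percentile of 30.6. Just outside it, 5 common sites were overlapped by HRG peaks by at most 100 bp, with a median of 29.6. Sites at the border were thus few and similar in score. The HRG list was the longest of the SKBr3 lists, with 37195 peaks against 32183 on vehicle and 32567 on EGF.

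A score of 3100 was shared by 772 vehicle and 786 EGF peaks and by 478 to 1156 peaks of each other list, so that peaks at this value cannot be ranked against each other. The strongest HRG-absent site lay on chromosome 7 between 17637868 and 17645027, 220579 bp from the nearest protein-coding start, that of SNX13, a sorting nexin of endosomes. It scored 3100 on vehicle and 3100 on EGF, the nearest HRG peak was 38038 bp away, and it was called in all 5 other lists, with a score of 3100 in each BT-474 list, 477 in pSKBr3 and 1232 in LRSKBr3. The next site overlapped an exon of TNFAIP1 on chromosome 17 (26669158 to 26676409), with 3100 on vehicle, 2444 on EGF and 2266 in pSKBr3. The third, in an intron of DGLUCY on chromosome 14 (91572868 to 91579251), scored 1380 on vehicle and 3053 on EGF. These strong sites were wide, at 7160, 7252 and 6384 bp against a median of 1528 bp over all HRG-absent sites. None of the 10 strongest held an ERRE or an AP-1 word within 100 bp of the centre. Over all HRG-absent sites the ERRE word was at 8.58% and the AP-1 word at 7.09%, so few would be found in any 10 sites.

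Further down this ranking, a site in an intron of PPARGC1B (chromosome 5, 149158549 to 149164017) scored 735 on vehicle and 1054 on EGF, 9780 bp from a start of the gene. PPARGC1B encodes PGC-1β, a coactivator of ERRα. A site 75621 bp from CEBPB, which encodes a transcription factor of the C/EBP family, scored 748 on vehicle and 859 on EGF. A site in an intron of ARID5B, a DNA-binding chromatin regulator, scored 737 and 744. Each of these was called in pSKBr3, LRSKBr3 and the 3 BT-474 lists, so the absence of a call was limited to HRG-treated SKBr3 cells among the lists at hand. The remaining sites among the strongest were in introns of ELMO1 and DLG5 and nearest to MYO16 and RANBP3L, and only that nearest to MYO16 lacked a BT-474 vehicle and EGF peak. The DLG5 site lay 335 bp from an HRG peak.

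HRG-absent sites lay away from gene starts. A centre within 1 kb of a start (promoter) was found at 317 sites, 6.11% (5.49 to 6.8), against 19.2% (18.6 to 19.8) of common sites and 31.8% of sites called on vehicle and HRG without EGF. It was found at 14.7% of all merged sites. Sites called on vehicle only (5.64%) or on EGF only (5.06%) were as low, so this was not particular to HRG-absent sites. Introns held 43.2% of HRG-absent sites, exons 2.87%, and 47.8% were intergenic, against 38.9%, 2.76% and 43.6% of all merged sites. The median distance to the nearest protein-coding start was 36253 bp, compared with 13108 bp for common sites. The strongest promoter members were at CDC42BPA, a kinase that acts downstream of CDC42 (665 on vehicle and 644 on EGF), PLPP3, a lipid phosphatase (525 and 576), and SPRED2, an inhibitor of the RAS and MAP kinase pathway (457 and 979). Those at RNF144B (489 and 474), UQCC1 (836 and 452), NCOA7 (486 and 415), NUP93 (1089 and 380) and S100A12 (362 and 363) followed. UQCC1 is an assembly factor of respiratory complex III, and its promoter site was also strong in pSKBr3 (1976) and LRSKBr3 (2346) while its only BT-474 call was on HRG (102).

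The DNA under HRG-absent sites was poor in G and C. The mean GC content within 100 bp of the centre was 41.6% ± 6.8 (SD, n = 5187 sites), against 48.9% ± 9.4 (n = 16175) at common sites and 53.0% ± 9.4 (n = 1725) at sites with vehicle and HRG peaks but no EGF peak. The surroundings differed in the same direction, with 40.5% in flanking windows 2 kb away from HRG-absent sites and 45.5% for common sites. Vehicle-only sites (40.8%, n = 8445) and EGF-only sites (41.7%, n = 5536), which also lack HRG peaks, were close to the HRG-absent sites. The whole HRG list had a mean GC content of 50.5%, compared with 45.8% for the vehicle list and 46.4% for the EGF list, so that base composition moved with the list as a whole. Whether base composition had a part in the absence of HRG peaks was not tested.

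The share of vehicle and EGF sites without an HRG peak went down steadily with flanking GC content. When the 21362 sites were put into 5 bins by the GC content of their flanks, 39.9% (38.4 to 41.4) lacked an HRG peak in the bin poorest in GC, then 32.1%, 24.9% and 16.9%, and 8.21% (7.42 to 9.07) in the richest bin. The order was the same away from promoters, from 43.7% to 9.26%. It was also present at every level of vehicle score. Among sites with a vehicle percentile up to 25, the share went from 68% to 19.8% from the poorest to the richest bin. Among those above 75 it went from 11.3% to 1.53%. Both a low vehicle score and low GC content thus went with the lack of an HRG call.

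**Figure D2:**
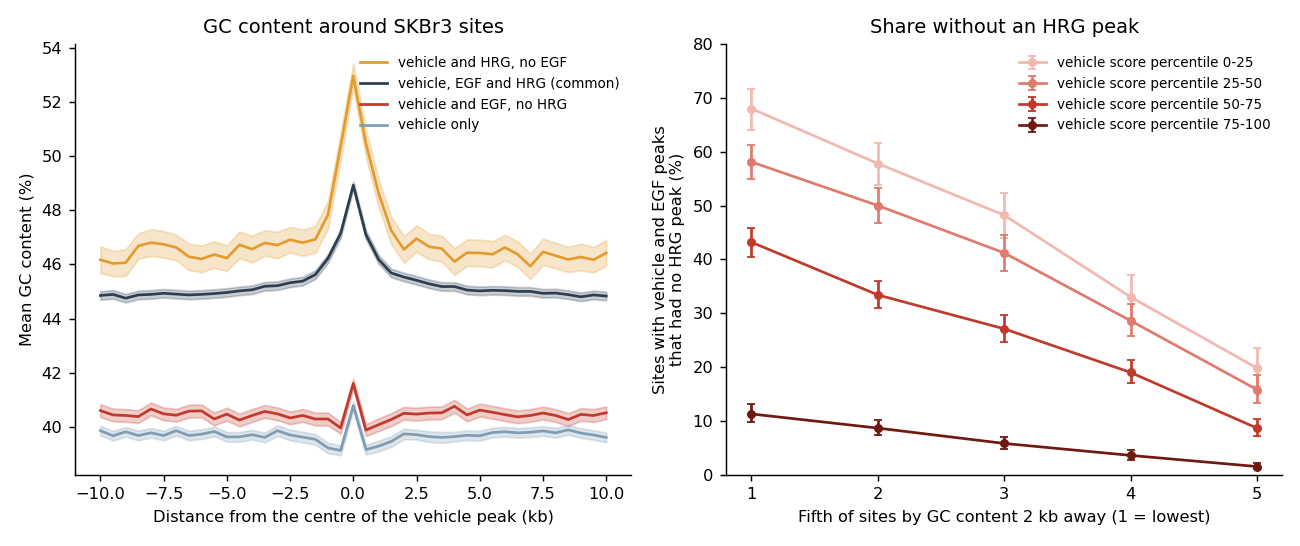
Left, mean GC content (%) by distance from the centre of the vehicle peak (kb) for 4 classes of SKBr3 sites, with bands for the 95% interval of the mean. Right, share of vehicle and EGF sites with no HRG peak (%) in 5 bins of flanking GC content, drawn for 4 ranges of vehicle percentile with 95% Wilson intervals. HRG-absent sites stay near 40 to 42% GC over the whole window, under the common sites, and every line on the right goes down with GC content.

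HRG-absent sites were spread over all chromosomes in uneven shares. Chromosome 7 held 659 of them (12.7%), against 6.1% of the vehicle and EGF sites and 10.1% of all merged sites, and 50.6% (47.9 to 53.3) of its vehicle and EGF sites lacked an HRG peak. The next highest shares with more than 100 sites were 32.4% on chromosome 3 and 32% on chromosome 20, and the lowest were 4.77% (3.28 to 6.9) on chromosome 19 and 5.16% on chromosome 22. The 4 sites listed on chromosome Y all lacked an HRG peak. Over the 23 chromosomes with at least 20 such sites, the share went down with mean flanking GC content (Pearson r −0.80, Spearman rho −0.75). Without chromosome 7 the coefficients were −0.82 and −0.72, a description only, since the chromosomes share the same libraries.

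**Figure D3:**
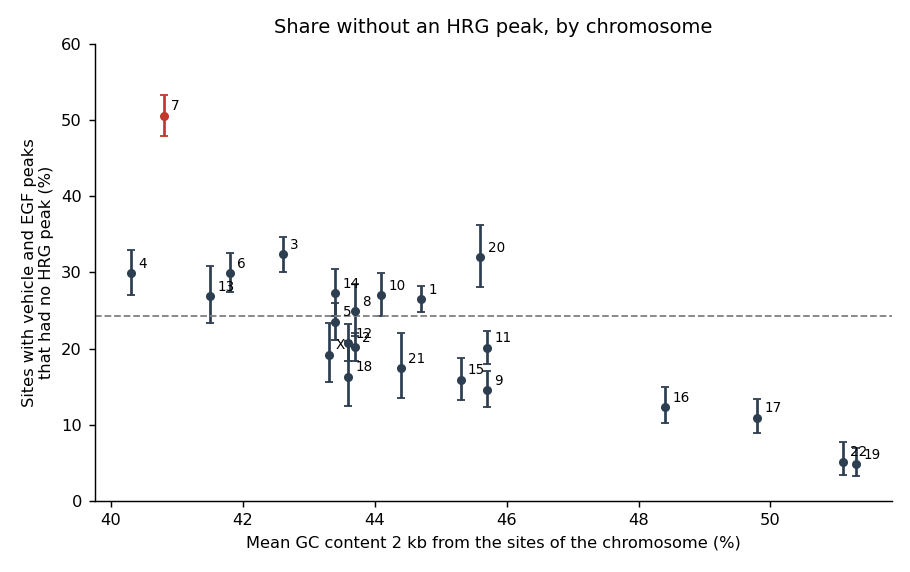
Share of vehicle and EGF sites with no HRG peak (%, with 95% Wilson intervals) against the mean GC content 2 kb from the sites (%) for 23 chromosomes. The dashed line is the share over all chromosomes, 24.3%. Chromosome 7, in red, stands at 50.6%, above chromosomes 4 and 13 of like GC content (29.9% and 26.9%).

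Chromosome 7 differed from the rest in other ways. Its HRG-absent sites had a mean GC content of 38.9%, against 42% elsewhere, and held the ERRE word at 4.86% (3.46 to 6.77) against 9.12% (8.32 to 9.99). An LRSKBr3 peak was found at 36.3% of them and at 57.2% of those elsewhere. Common sites on chromosome 7 also had a lower mean GC content than those elsewhere (46.1% against 49.0%) and fewer ERRE words (6.68%, 4.99 to 8.87, against 8.83%, 8.4 to 9.29, with overlapping intervals), and LRSKBr3 peaks at 90.4% against 92.9%. Of all sites with a vehicle peak on chromosome 7, with or without EGF, 79.3% lacked an HRG peak, compared with 55% on chromosome 3, 59.8% on chromosome 20 and 33% on chromosome 2.

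Within chromosomes some stretches were dense. In bins of 5 Mb, the bin from 5 to 10 Mb of chromosome 3 held 70 HRG-absent sites, the most of 597 bins with a site, and 70% of its 100 vehicle and EGF sites had no HRG peak. On chromosome 14, between 85 and 90 Mb, 43 of 50 sites (86%) lacked it. Chromosome 7 gave 5 of the 10 densest bins. The 10 densest bins together held 9.41% of the HRG-absent sites, and 552 bins held at least 1, with a median of 6.

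The 8 genes with the most HRG-absent sites were all long, and 3 of them (GRM7, HDAC9 and BBS9) lie in the densest bins. GRM7, which encodes a metabotropic glutamate receptor and spans 972 kb of chromosome 3, had 30 HRG-absent sites and 1 common site within the gene or 20 kb before its start. LRMDA on chromosome 10 had 13 and no common site. HDAC9, a class II histone deacetylase gene on chromosome 7, had 13 and 5, MACROD2 on chromosome 20 had 12 and 5, and BBS9 on chromosome 7 had 10 and 3. FTO, the gene of an RNA demethylase, had 10 and 4. In RAD51B, a gene of homologous recombination, and RUNX1, a transcription factor gene of the luminal lineage, common sites outnumbered HRG-absent sites, with 19 against 11 and 17 against 11. These counts were not scaled by gene length, which ran from 457 kb (FTO) to 2058 kb (MACROD2).

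The ERRE word had similar shares at HRG-absent and common sites over all GC contents, and a lower share at HRG-absent sites among GC-poor DNA. TCAAGGTCA, read on both strands within 100 bp of the centre, was present at 445 HRG-absent sites, 8.58% (7.85 to 9.37), against 8.75% (8.32 to 9.19) of common sites, 5.97% of sites with vehicle and HRG peaks only, 4.8% of vehicle-only sites, 5.6% of EGF-only sites and 6.14% of all merged sites. In the flanking windows of the same width it was present in 0.308% (0.219 to 0.435). The shorter word AAGGTCA was found at 26.3% of HRG-absent sites and in 3.56% of their flanks, and at 30.3% of common sites. The 2 bases in front of that shorter word were TC at 30.6% (28.3 to 33) of its occurrences in HRG-absent sites, CC at 20.8% and TG at 9.41%, whereas in the flanks AC came first with 12.8%. Both words thus stood far above their flanks, and the short word was lower at HRG-absent than at common sites. At like GC content the full word had lower shares too, with intervals apart only in the range poorest in GC. It was at 8.83% (7.81 to 9.97) of HRG-absent and 11.3% (10.3 to 12.4) of common sites under 41.8% GC, and at 9.38% and 10.3% between 41.8% and 50.7%, where the intervals overlap. Above 50.7% GC the shares were 3.99% (2.6 to 6.09) and 5.97% (5.42 to 6.56), again with overlapping intervals.

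Among HRG-absent sites the ERRE word was rarest at the strongest sites, with no fall over the lower percentiles. It was present at 8.96% of those with a smaller percentile up to 25, at 9.34% from 25 to 50, at 6.02% (4.53 to 7.96) from 50 to 75, and at 1 of the 65 above 75 (1.54%, 0.272 to 8.21). Set against common sites by vehicle percentile, the order changed with the level. Up to 25 the word was at 9.26% of HRG-absent and 9.44% of common sites. From 25 to 50 it was at 10.4% (9.05 to 11.9) and 8.64% (7.62 to 9.77), and from 50 to 75 at 7.62% (6.45 to 8.97) and 9.37% (8.57 to 10.2). Among sites with a vehicle percentile above 75, 3.31% (2.02 to 5.39) of HRG-absent sites held the word, against 8.25% (7.64 to 8.9) of common sites. Vehicle-only sites were also low in this range (2 of 93, 2.15%, 0.592 to 7.51) and at 5.37% up to percentile 25. The strong HRG-absent sites were also wider, with a median of 2886 bp above percentile 75 against 1383 bp up to 25, and 20% of them lay on chromosome 7 against 11.8%. The part of width and chromosome in this difference was not tested.

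AP-1 words were less frequent at HRG-absent than at common sites. They were present at 368 HRG-absent sites, 7.09% (6.43 to 7.83), and 8.54% (8.12 to 8.98) of common sites, with 3.11% in the flanks of HRG-absent sites and 9.78% over all merged sites. The share was 20.6% at EGF-only sites, 3.24% at vehicle-only sites and 2.03% at sites with vehicle and HRG peaks only. Under 41.8% GC the AP-1 word was at 6.66% (5.78 to 7.67) of HRG-absent and 9.05% (8.16 to 10) of common sites. Between 41.8% and 50.7% GC the shares were 7.7% (6.61 to 8.94) and 9.88% (9.15 to 10.7). Above 50.7% GC they were alike, at 6.99% (5.07 to 9.56) and 7.05% (6.46 to 7.7). The AP-1 share differed by the order of the vehicle and EGF percentiles, though not by the smaller percentile (7.31%, 6.89%, 7.09% and 4.62% from the weakest to the strongest sites). It was present at 11.5% (10.1 to 13.1) of the 1785 HRG-absent sites with a higher percentile on EGF than on vehicle, and at 4.76% (4.1 to 5.53) of the 3402 with a lower one. The ERRE word was at 8.91% and 8.41% of the same sites. Common sites split the same way, with AP-1 words at 13.8% and 4.25%, so this split was not particular to HRG-absent sites.

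Both words were gathered at the centre of the vehicle peaks. Of 895 ERRE words within 1 kb of the centres of HRG-absent sites, 52% were within 100 bp, and the median distance was 92 bp. Of 2273 AP-1 words in the same range, 17.4% were within 100 bp, with a median distance of 395 bp. Common sites gave 46.8% and 18.1%.

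**Figure D4:**
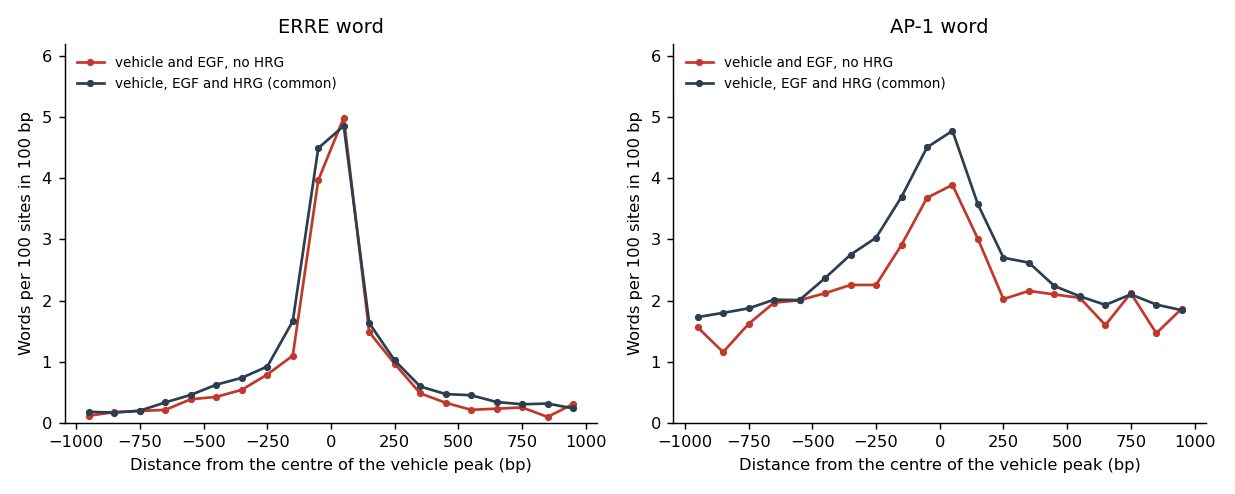
Number of ERRE words (left) and AP-1 words (right) per 100 sites in steps of 100 bp by distance from the centre of the vehicle peak (bp), for HRG-absent and common sites. The ERRE curves of both classes rise sharply at the centre to a like height, and the AP-1 curves form a lower and broader rise that is higher at common sites.

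The named ERRE sites varied in how widely they were called. The site in an intron of GARNL3 scored 702 on vehicle and 620 on EGF, and was called in all 5 other lists, with 839 in LRSKBr3 and 1518 in HRG-treated BT-474 cells. The site nearest to SEMA3C, which encodes a secreted semaphorin and starts 246069 bp away, scored 801 and 327 in SKBr3 and had no pSKBr3 or LRSKBr3 peak, but scored 1100 on vehicle, 643 on EGF and 2312 on HRG in BT-474. The site in RARB, a retinoic acid receptor gene, scored 250 and 362, with calls in pSKBr3 (95.3) and LRSKBr3 (288) and none in BT-474. The site 23410 bp from COL13A1, a transmembrane collagen gene, scored 231 and 255 in SKBr3 and 3100, 3190 and 3100 on vehicle, EGF and HRG in BT-474. The element was thus held by sites with calls in every list, in BT-474 but not in pSKBr3 or LRSKBr3, or in pSKBr3 and LRSKBr3 but not in BT-474. The EPS15 and FGGY sites scored 326 and 369 on vehicle and 289 and 361 on EGF.

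Of the 6 named AP-1 sites, 5 were called in LRSKBr3 and 1 in pSKBr3. The site nearest to LPP, a gene of focal adhesions that starts 174508 bp away, scored 846 on vehicle and 487 on EGF and had 1 further call, in LRSKBr3 (81.6). The site nearest to IQUB, at 100845 bp, scored 597 and 468 and was called in no other list. The RUNX1 intron site scored 352 and 460, lay 3385 bp from an HRG peak, and had calls in LRSKBr3 (68.3) and in HRG-treated BT-474 cells (84.8). The site in RPTOR, the gene of the mTORC1 subunit Raptor, scored 249 and 290 and was called in LRSKBr3 (266). The PHACTR2 site (517 and 268) was called in pSKBr3 and LRSKBr3 but not in BT-474. In BT-474, only the GNG12 site was called on vehicle and EGF, with scores of 50.9 and 59.8, and it was called on HRG too (163).

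HRG-absent sites were found less often than common sites in the pSKBr3 and LRSKBr3 lists. A pSKBr3 peak overlapped 1116 of them, 21.5% (20.4 to 22.7), against 75% of common sites and 33.8% of all merged sites. An LRSKBr3 peak overlapped 2829, 54.5% (53.2 to 55.9), against 92.8% of common sites and 54.4% of all merged sites. The LRSKBr3 share was thus at the level of all merged sites, and the pSKBr3 share below it. Sites with vehicle and HRG peaks but no EGF peak were at 58% and 85.3%. An LRSKBr3 peak without a pSKBr3 peak was present at 1892 HRG-absent sites (36.5%, 35.2 to 37.8), compared with 19.5% of common sites and 22.8% of all merged sites, and 2179 (42%) had neither, against 5.56% of common sites and 43.4% of all merged sites. The LRSKBr3 list is longer than the pSKBr3 list (39777 against 22539 peaks), and their mean GC contents were 50% and 52.4%.

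The low pSKBr3 share was present at each level of vehicle score and among GC-poor sites. With a vehicle percentile up to 25, 12.4% of HRG-absent sites and 43.5% of common sites had a pSKBr3 peak, and 43% and 77.3% had an LRSKBr3 peak. Above 75, the pSKBr3 shares were 47% (42.5 to 51.6) and 93.6% (93 to 94.1), and the LRSKBr3 shares 75.7% and 98.9%. Among sites under 41.8% GC, 15.3% of HRG-absent and 63% of common sites had a pSKBr3 peak. Vehicle-only sites were lower still, with pSKBr3 peaks at 5.62% up to percentile 25, 29% above 75 and 4.82% under 41.8% GC. Where HRG-absent sites had a pSKBr3 peak, its median percentile was 31.5 in that list, and the LRSKBr3 peaks had a median of 43.8, against 68.1 and 78.0 for common sites.

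In BT-474 the HRG-absent sites were called at rates above those of all merged sites. A BT-474 vehicle peak was present at 40% of them (background 33.7%), an EGF peak at 31.9% (background 25.8%) and an HRG peak at 47.2% (background 37.3%), with common sites at 63.9%, 52.3% and 66.3%. Sites with vehicle and HRG peaks but no EGF peak in SKBr3, which are rich in GC, were at 35.1% on BT-474 vehicle and 31.4% on BT-474 HRG. Under 41.8% GC the intervals of the 2 classes overlapped in both lists, with BT-474 vehicle peaks at 48.3% (41.5 to 55.1) of them and 42.2% (40.4 to 44.1) of HRG-absent sites, and BT-474 HRG peaks at 47.3% (40.6 to 54.1) and 52.6% (50.7 to 54.5). The BT-474 lists had mean GC contents of 42.7%, 40.3% and 40.4%, under those of the pSKBr3 and LRSKBr3 lists. Any BT-474 peak was present at 53% of HRG-absent sites, 72.4% of common sites and 42.5% of all merged sites. All 5 other lists called 378 HRG-absent sites (7.29%), against 40% of common sites and 13.6% of all merged sites. None of them called 1242 (23.9%), against 2.47% and 32.5%.

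**Figure D5:**
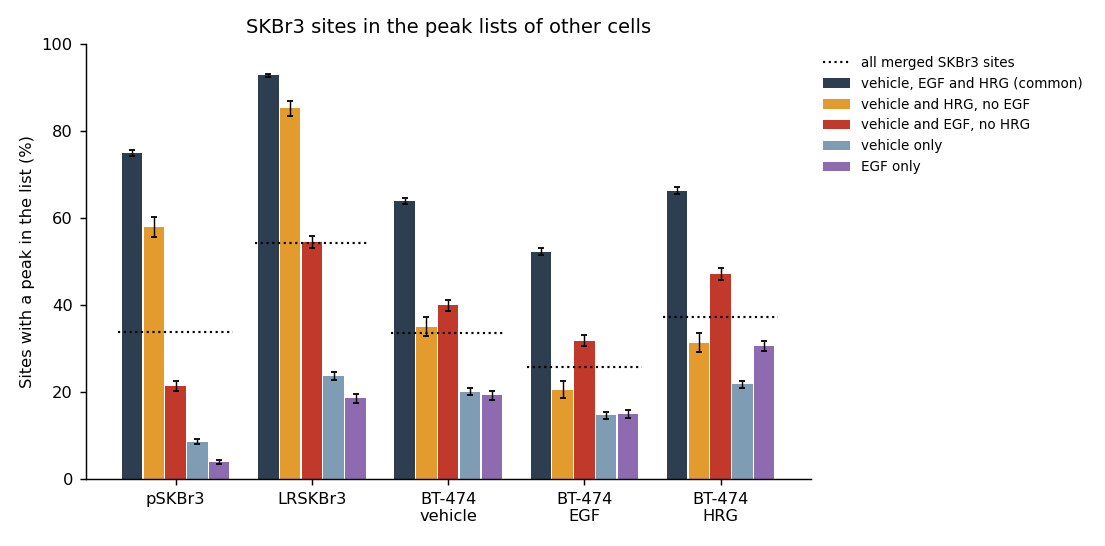
Share of sites (%) with a peak in the pSKBr3, LRSKBr3 and 3 BT-474 lists, for 5 classes of SKBr3 sites, with 95% Wilson intervals. Dotted lines give the share over all merged SKBr3 sites. HRG-absent sites (red) stand below that line in pSKBr3, on it in LRSKBr3 and above it in the BT-474 lists.

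The pattern was rare in BT-474, near its background. Of the 1443 HRG-absent sites with both a BT-474 vehicle and a BT-474 EGF peak, 55 lacked a BT-474 HRG peak, 3.81% (2.94 to 4.93). The background over all merged sites was 2.97%, common sites were at 1.79% (1.52 to 2.1), and vehicle-only sites at 6.42%. The highest shares were at sites that did have an SKBr3 HRG peak, with 8.11% where vehicle and HRG peaks were present and 7.93% at HRG-only sites. With an overlap of 50% of both peaks the share was 9.5% (all merged sites 8.15%), with centres within 500 bp 7.58% (7.51%), and with P at most 1e-10 in every list 1.83% (1.89%). The BT-474 HRG list is the longest of the BT-474 lists, with 41271 peaks. All 3 BT-474 lists called 1388 HRG-absent sites (26.8%, all merged sites 22.9%), and the BT-474 HRG list alone of the 3 called 466 (8.98%, all merged sites 6.68%). The strongest sites with the same pattern in both lines were 3668 bp from DDC, the aromatic amino acid decarboxylase gene (365 and 232 on SKBr3 vehicle and EGF, 171 and 60.9 in BT-474), in MYRFL (1406 and 197, then 113 and 53.5) and 32369 bp from SUSD4 (229 and 192, then 99.6 and 58.9). Those in NBAS, TACR1 and BTBD10 followed. The BT-474 EGF scores of all 6 lay between 51.7 and 68.7, near the lowest score of that list, 50.

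Among HRG-absent sites called in neither pSKBr3 nor LRSKBr3, the 6 strongest were in introns of KCND2, GLI3 and HECW1, and in intergenic stretches far from the nearest starts, those of IQUB (100845 bp), KCND2 (688857 bp) and FLRT2 (1075069 bp). Of these, 5 were on chromosome 7, which held 402 of all 2179 sites called in neither list. Such sites were 61% (57.2 to 64.7) of the HRG-absent sites on chromosome 7 and 39.2% (37.8 to 40.7) of those elsewhere. The 6 strongest were as follows. The site in KCND2, a potassium channel gene, scored 624 on vehicle and 398 on EGF. The intergenic site nearest to KCND2 scored 451 and 405, and both had no peak in any other list. The site in GLI3, a transcription factor of the Hedgehog pathway, scored 397 and 388, with BT-474 calls on vehicle (68.7) and HRG (361).

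HRG-absent sites lay within 20 kb of a start of 1990 of 20136 protein-coding genes, 9.88%. Of these genes, 1108 (55.7%) were also near a common site, and 1574 (79.1%) had some HRG peak in range. For 416 genes (20.9%) no HRG peak lay within 20 kb, against 7.96% of the genes near any vehicle site, which include them, and 33.6% of all protein-coding genes. The shares of gene lists are given below beside this 9.88%, without adjustment for the number of lists. Among genes with any vehicle site in range, 18.2% were near an HRG-absent site. Of the lists reported here, the ERBB receptors and ligands alone had an interval that left out this share (4 of 8, 50%, 21.5 to 78.5), and oxidative phosphorylation was lowest (8 of 77, 10.4%, 5.36 to 19.2).

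Genes of the metabolic programme of ERRα had shares whose intervals all included 9.88%. Of 83 oxidative phosphorylation genes, 8 had an HRG-absent site in range (9.64%), while 74 (89.2%) were near a common site, against 42.5% of all genes. These were NDUFS3 and SDHA of complexes I and II, UQCRFS1 of complex III, COX6C of complex IV, and ATP5F1A, ATP5F1E, ATP5MG and ATP5PO of ATP synthase. Of 27 genes of the TCA cycle and pyruvate entry, 5 were near an HRG-absent site (18.5%, 8.18 to 36.7), namely SUCLG2, SUCLA2, FH, PDHB and PDK4. Fatty acid oxidation gave 3 of 26 (11.5%, HADHA, HADHB and ACSL3) and glutamine and glutathione metabolism 4 of 35 (11.4%, SLC38A2, GSTK1, MGST1 and MGST3). Each of the named genes of these lists had some HRG peak within 20 kb of a start. The site in an intron of HADHB, a subunit of the mitochondrial trifunctional protein, scored 304 on vehicle and 413 on EGF, and the nearest HRG peak was 4424 bp away. The site 18174 bp from ACSL3, an acyl-CoA synthetase gene, scored 400 and 338. The site at MGST3, a microsomal glutathione transferase gene, scored 216 and 155, with an HRG peak 657 bp away.

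The genes of the ERRs and their coregulators gave 4 of 18 (22.2%, 9 to 45.2), and the ERBB receptors and ligands 4 of 15 (26.7%, 10.9 to 52). The first interval includes the background of 9.88%, and the second starts just above it, in lists of few genes. The genes of the first list were PPARGC1B, described above, NRIP1, which encodes the corepressor RIP140 (154 and 159), ESRRG, which encodes ERRγ (54.8 and 97.6, with an ERRE word), and PROX1, which encodes a corepressor of ERRα (105 and 98.4). At PROX1 no HRG peak lay within 20 kb of a start. The values of the weaker sites in both groups are given although they fall outside the rule for named genes, and they were chosen after the values had been seen. The ERBB sites were at the receptor genes EGFR (103 and 66.5) and ERBB4 (89.8 and 80.4) and at the promoters of the ligand genes BTC (55.6 and 95.2) and EGF (94.4 and 50.6). The EGFR site was 348 bp from an HRG peak, whereas the ERBB4 site was 301940 bp from one. None of these 4 sites was called in pSKBr3 or LRSKBr3, and all their percentiles were under 39. In BT-474 the ERBB4 site was called in all 3 lists, HRG included, the BTC site in 2, the EGF site in 1 and the EGFR site in none.

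Other signalling and lineage genes showed a few sites each, and the intervals of the first 3 lists below include 9.88%. Feedback inhibitors of growth factor signalling gave 4 of 31 (12.9%, 5.13 to 28.9, DUSP10, SPRY1, SPRED2 and ERRFI1), the PI3K, AKT and mTOR pathway 5 of 30 (16.7%, 7.34 to 33.6, INPP4B, MTOR, RICTOR, MAPKAP1 and AKT1S1), and other receptor tyrosine kinases 6 of 50 (12%, 5.62 to 23.8, IGF1R, FLT1, MERTK, DDR2, ALK and EPHB6). Of 24 luminal lineage transcription factors, 6 were in range (25%, 12 to 44.9), namely EHF, GRHL1, GRHL3, KLF5, MYB and RUNX1. This interval starts above 9.88%. Among luminal genes with a vehicle site in range, the share was 6 of 17 (35.3%, 17.3 to 58.7), an interval that includes the 18.2% of all such genes. Of 14 AP-1 genes, FOSL2 alone was in range (7.14%, 1.27 to 31.5), with a site that scored 170 and 227 and lay 970 bp from an HRG peak. DDR2, a collagen receptor gene, and MYB had no HRG peak in range. The DDR2 site scored 300 on vehicle and 224 on EGF. The site at GRHL1, an epithelial transcription factor gene, scored 181 and 154.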

How the data were processed

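ERRα ChIP-seq was analysed in 19 libraries of SKBr3, BT-474, pSKBr3 and LRSKBr3 cells through the 8 peak lists made from them. The authors aligned reads to hg19 with BWA 0.5.9, used SAMtools 0.1.18 (both per the labels' processing notes) and ran MACS with a P cutoff of 1e-05. The deposited score of each peak is the authors' negative log10 of P times 10. The SKBr3 vehicle, EGF and HRG lists open with a comment naming FindPeaks, while their peaks carry MACS names. Depth is unknown, since the lists hold no tag counts.

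Vehicle, EGF and HRG peaks of SKBr3 overlapping by at least 1 bp were merged. Scores were ranked within lists. Centres are those of the highest-scoring vehicle peak of a site, or else of its EGF or HRG peak. Words were sought on both strands within 100 bp, flanks lay 2 kb away, and genes and starts came from GENCODE on GRCh37, the build of the lists. A promoter was within 1 kb of a start and a gene in range within 20 kb. The members and the 12 gene lists were chosen with earlier results of these data known, and the result and site of 1 list are not reported here. Sites named are the strongest by the smaller percentile: 10 of all, 8 at promoters, 6 with each word, 6 with the same pattern in BT-474, 6 absent from pSKBr3 and LRSKBr3, the 8 genes with most members, and listed genes whose smaller percentile was above 50. Alternatives concerned overlap, threshold, list size, chromosomes Y and 7, words and windows, and distances to starts. On simulated data, 3500 of 3500 sites received their class and 500 of 500 planted ERRE words were found. Python 3.11.15, numpy 2.4.6, statsmodels 0.14.6, pysam 0.24.0, samtools 1.23.1 and matplotlib 3.10.9 were used.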

Additional observations from a re-analysis of the deposited data

How the results depend on the processing

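Of 58 values under 13 other settings, 28 stayed within the interval of the reported value, or within 1.5 times a reported count, and 30 did not. The number of HRG-absent sites (5187) ranged from 4528 to 5824 apart from thresholds, and was 3046 with a P of at most 1e-10 in every list and 1782 with that threshold for vehicle and EGF only. With an overlap of 50% of both peaks, mean GC content was 43.0%, the promoter share 8.11%, the pSKBr3 share 26.3%, the LRSKBr3 share 56.6% and the BT-474 share without HRG 9.5%. With centres within 500 bp these were 43.8%, 9.5%, 30.3%, 57.2% and 7.58%. With P at most 1e-10 they were 42.2%, 7.72%, 20.1%, 58.2% and 1.83%. The BT-474 share of all merged sites moved with it, to 8.15%, 7.51% and 1.89%. With SKBr3 lists of equal size, mean GC content was 41.9%, the pSKBr3 share 23.9% and the LRSKBr3 share 57.3%. Without chromosome 7, a setting added after the data had been seen, mean GC content was 42% and the LRSKBr3 share 57.2%. The ERRE share was 26.3% with the short word AAGGTCA, 5.46% within 50 bp and 16.7% in the whole vehicle peak, where the AP-1 share was 33.7% (3.62% within 50 bp) and GC content 40.3%. The promoter share was 9.87% within 2 kb, and 3227 genes had a site within 50 kb. The ERRE and AP-1 shares stayed within their intervals under the 6 settings of overlap, threshold in every list, list size and chromosome, and were not computed with the threshold on vehicle and EGF only. No paired analysis was possible because each list pools the replicate libraries of its condition, and for the same reason no library could be left out. The depth of the libraries, and with it how far an HRG peak could have been missed, is unknown.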
